A study of Mus musculus with 6 samples.

Results

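The Slc25 family holds the carrier proteins that move nucleotides, phosphate, acids, amino acids, vitamins and iron across mitochondrial membranes. Its members were taken as all protein-coding genes in the count tables whose symbol starts with Slc25a and a number in the GRCm38 mouse annotation. This gave 47 genes of 52550 mouse gene rows, on 19 chromosomes, and the pseudogene Slc25a5-ps was left out. The rule used no measured value. Carriers that belong to the family but have other symbols, such as the uncoupling proteins, were not members and are given as relatives.

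The question, from the series title, was what deleting the glucocorticoid receptor in cardiomyocytes does to transcripts of the young heart. Mouse hearts of postnatal day 7 were lysed whole, and 3′ mRNA libraries were made of 3 control (ctrl) and 3 GR-cKO hearts, labelled as biological replicates and numbered 1 to 3 in each group. The labels do not name the Cre line, the deleted exon, the strain or the genotype of the controls. Nr3c1, the gene of the receptor, was at 114, 131 and 99.7 CPM in control hearts 1, 2 and 3 and at 57.6, 49.2 and 56.2 CPM in GR-cKO hearts 1, 2 and 3. It was the 1 gene of 14860 that passed the edgeR quasi-likelihood test over all genes (log2 fold change -1.08, SE 0.125, adjusted p = 0.00101). CPM here is reads of a gene per 1000000 reads of tested genes, scaled by the trimmed mean of M-values (TMM). In 3′ libraries a transcript gives reads from its end only, so CPM follows transcript number and is not divided by length.

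The files held 18135540 to 22999192 reads per library, and the 47 members took 130869 to 196893 of them. Replicate 1 of each group was female and the other 4 libraries were male, from Xist and Y-linked reads. All 10 cardiomyocyte markers were tested, and their summed level was 70186 to 82382 CPM in control and 76892 to 93712 CPM in GR-cKO hearts. Liver markers summed to 2.31 to 3.07 CPM over all hearts. Marker sums that did not overlap between the groups were those of fast skeletal muscle (18.4 to 22.2 CPM in control, 25.9 to 26.7 in GR-cKO), neutrophils (13.1 to 15.4 against 19.7 to 27.8) and fibroblasts (4142 to 5033 against 3932 to 4102). Most of the fast skeletal muscle sum was Mybpc2 (8.87 to 16.0 CPM) and Tnni2 (7.13 to 13.1 CPM), and each overlapped between the groups. Myh1, Myh2, Myh4 and Actn3 were at 0 to 0.699 CPM. The part of these marker sums in the levels of Slc25 members was not tested. Reads of Gm42418, a ribosomal RNA related transcript, were 10.9% of mouse gene reads in GR-cKO replicate 3 and 5.47 to 7.69% elsewhere. In whole tissue, fewer cells of a type and less RNA per cell cannot be told apart.

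A carrier of this family is built from repeats of a pair of membrane helices that form 1 transport path through the inner membrane. The adenine nucleotide carrier exports ATP in exchange for ADP, and the phosphate carrier brings in the phosphate for its synthesis. Heart muscle, which runs on fatty acids soon after birth, also relies on the acylcarnitine carrier and on the malate-aspartate shuttle. A few members lie elsewhere, among them Slc25a17 in peroxisomes and Slc25a46 in the outer membrane.

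The main pair of adenine nucleotide carriers was similar in coding sequence. Slc25a4 and Slc25a5 each have 897 coding bases in GENCODE M21, of which 695, or 77.5%, were identical when aligned. That was the highest identity of any member to its closest member, and the lowest was 53.1%. The last 90 coding bases of both, 5′ to 3′, are shown here because they lie nearest to the sequenced ends of these transcripts. Capitals mark the 18 bases that differ.

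Slc25a4: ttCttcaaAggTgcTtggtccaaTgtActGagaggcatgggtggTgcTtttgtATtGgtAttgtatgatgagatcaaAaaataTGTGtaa

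Slc25a5: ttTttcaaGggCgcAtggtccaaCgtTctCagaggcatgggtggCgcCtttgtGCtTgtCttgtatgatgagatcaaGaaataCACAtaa

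The last 400 bases of the transcripts told more about copies. Of the 50-base words in that window of Slc25a5, 8.83% also occurred in transcripts of other genes. All of these were in the pseudogenes Slc25a5-ps and Gm5560, and none was in Slc25a4. For Slc25a21 the share was 1.71%, and for the remaining 45 members it was 0%. The count of Slc25a5 is therefore the less certain one of the pair. Exons of Atp6v1e1, Pax9 and Lrig1 lie on the opposite strand at the annotated 3′ ends of Slc25a18, Slc25a21 and Slc25a26. The strand setting of the counting is not given in the sources used here, so these counts are uncertain too.

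Promoters of the members held few of the letters searched for. RefSeq windows of 300 bases (GRCm38.p6), 250 before and 50 after the start, matched 36 of the 47 members. The full glucocorticoid response element, AGAACA then any 3 bases then TGTTCT, was in 0 of 36 members and in 0.0111% of all 27025 genes with a window. Its first 6 bases, AGAACA, occur within the full element and were searched on both strands, as all motifs were. They were in 4 of 36 members (11.1%) against 21.3% of all genes. These were Slc25a17, Slc25a31, Slc25a43 and Slc25a45. The element of the estrogen-related receptors, AAGGTCA, which regulates many genes of heart energy metabolism, was in Slc25a34 only (2.78% of members, 5.38% of genes). No match says only that these letters are not in the window. A match is a description of letters and not a measured binding site.

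Shown here are bases before the RefSeq start of Slc25a45 and Slc25a34, outside all GENCODE exons of the gene. Slc25a45 held AGAACA and had all GR-cKO hearts below all controls, a separation seen in 5.27% of all tested genes. Of the other members with AGAACA, Slc25a17 overlapped between the groups, and Slc25a31 and Slc25a43 had too few reads for a test. Slc25a34 was the 1 member with the estrogen-related receptor letters. Whether these letters bear on the levels was not tested. Capitals mark the match, on either strand. The first window is chr19:5877572-5877807 on the plus strand and the second is chr4:141623835-141624084 on the minus strand.

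Slc25a45: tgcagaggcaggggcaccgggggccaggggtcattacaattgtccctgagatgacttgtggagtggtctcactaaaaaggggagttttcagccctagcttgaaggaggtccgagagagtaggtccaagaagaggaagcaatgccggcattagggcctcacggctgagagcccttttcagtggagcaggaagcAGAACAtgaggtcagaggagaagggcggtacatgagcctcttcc

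Slc25a34: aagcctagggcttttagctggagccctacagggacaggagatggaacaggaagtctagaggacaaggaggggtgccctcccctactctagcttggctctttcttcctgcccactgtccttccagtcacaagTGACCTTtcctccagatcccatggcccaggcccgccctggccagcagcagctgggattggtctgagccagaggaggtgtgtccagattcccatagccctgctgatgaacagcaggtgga

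Levels of the members covered more than 4 orders of magnitude in CPM, and the family was dominated by 2 genes. Over the 6 hearts 2 members had a mean above 1000 CPM, 6 lay between 100 and 1000, 19 between 10 and 100, 11 between 1 and 10 and 9 under 1 CPM. Slc25a4 alone was 61.7 to 66.7% of the family's summed CPM in a library, and Slc25a4 and Slc25a3 together were 77.9 to 80.9%. Slc25a4 ranked 17th and Slc25a3 72nd among the 14860 tested genes by mean CPM. The median tested member had 21.7 CPM, against 13.7 CPM over all tested genes. In the order of mean levels, 4 of 46 neighbouring pairs had ranges over the 6 libraries that did not overlap. They were Slc25a4 above Slc25a3, Slc25a3 above Slc25a11, Slc25a51 above Slc25a39 and Slc25a13 above Slc25a46. All other neighbours in the order overlapped and were not separated by these libraries.

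**Figure D1:**
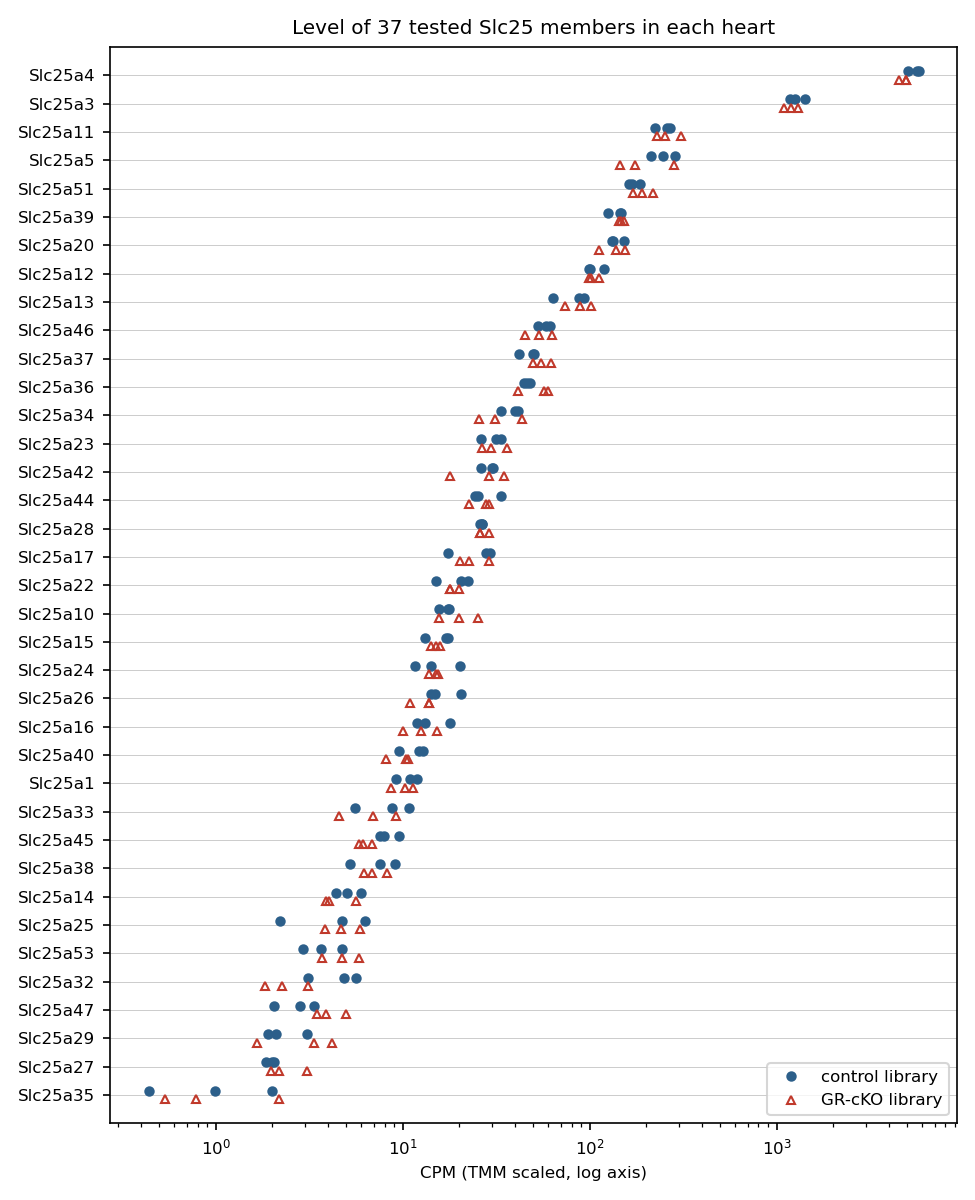
Level of 37 of the 38 tested members in each heart, in CPM on a log axis, ordered by the mean. Filled circles are the 3 control libraries and open triangles the 3 GR-cKO libraries. Slc25a4 has a mean of 5131 CPM and Slc25a3 of 1240.5 CPM, and the 2 genotypes overlap for most members.

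Of the 47 members, 38 had enough reads for a test, and none passed the edgeR test over all genes in either direction (smallest adjusted p = 0.998). Over all 14860 tested genes 0.00673% passed. At an unadjusted p under 0.05 edgeR gave 0 members higher and 1 lower, Slc25a32. That is 2.63% of the tested members, against 4.20% of all tested genes (2.07% higher, 2.13% lower). DESeq2 and limma voom also called 0 members and gave 1 at that unadjusted level. With 1 library left out this count was 0 without control replicate 2, control replicate 3 or GR-cKO replicate 1, 3 without GR-cKO replicate 2 (7.89%, against 5.64% of all genes) and 5 without GR-cKO replicate 3 (13.2% against 5.13%). Log2 fold changes of GR-cKO over control were below 0 for 22 and above 0 for 16 members, with a median of -0.05. Over all tested genes the median was 0.01 and 48.7% were below 0. With all GR-cKO hearts on 1 side of all controls there were 3 members below and 1 above, or 10.5% of members, against 9.97% of all tested genes (5.27% below, 4.70% above). Both shares lay near the background.

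The intervals bound how large a missed difference could be. The 95% interval of the log2 fold change excluded a 2-fold change in either direction for 33 of the 38 members, and a 1.5-fold change for 23. As shares, these were 86.8 and 60.5%, against 72.1 and 47.7% of all tested genes. The members were on average more abundant, and their median SE was 0.188 against 0.207.

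**Figure D2:**
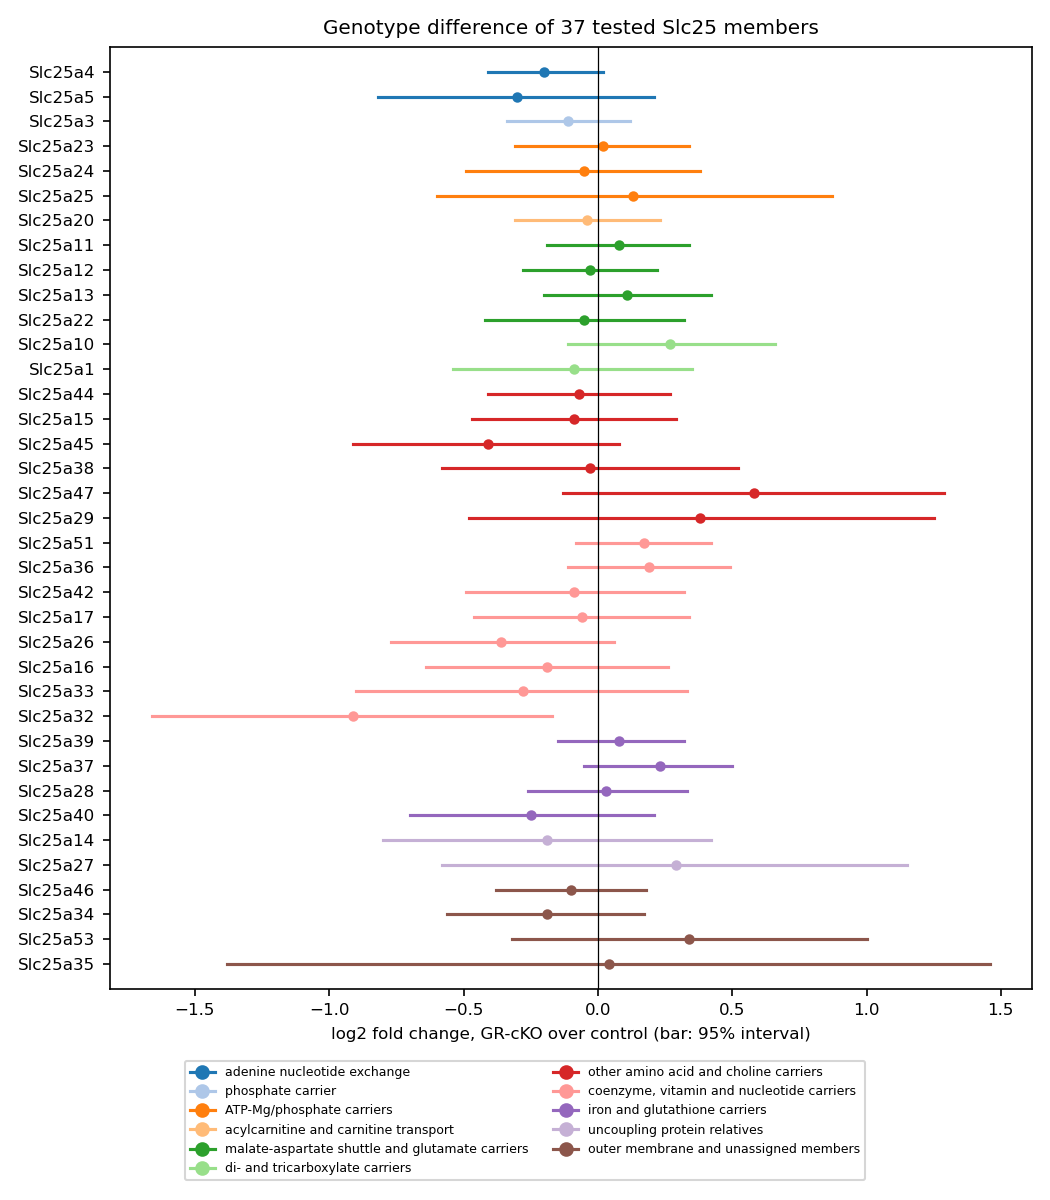
Log2 fold change of GR-cKO over control for 37 of the 38 tested members, grouped by role and coloured by it, with bars for the 95% interval of the edgeR fit. The bar of Slc25a32 is the 1 that does not reach 0, and no member passed after adjustment over all genes.

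Carriers of ATP synthesis came first in level. Slc25a4 (chromosome 8, 46206797 to 46211284, minus strand), the adenine nucleotide carrier of heart and skeletal muscle, was at 5742, 5669 and 5026 CPM in control hearts 1, 2 and 3. It was at 4506, 4928 and 4917 CPM in GR-cKO hearts 1, 2 and 3. All GR-cKO hearts lay below all control hearts on this scale. The group means were 5479 ± 394 and 4784 ± 241 CPM (SD, n = 3 each). On the log2 scale GR-cKO differed from control by -0.20 (SE 0.103, 95% interval -0.41 to 0.02, edgeR adjusted p = 0.998). With RLE size factors the groups did not overlap either (4501 to 4938 CPM in GR-cKO against 5023 to 5752 in control). The groups overlapped when scaled by library totals (4446 to 5206 CPM in GR-cKO against 5081 to 5823 in control) or by spike-in reads (4140.5 to 5803 against 5183 to 5709). As a share of the reads of the 10 cardiomyocyte markers, Slc25a4 was 6.97, 8.08 and 6.17% in control and 5.10, 6.41 and 5.25% in GR-cKO hearts 1, 2 and 3 (exact permutation p = 0.200, 2-sided). This share, chosen after the levels were seen, also overlapped between the groups. The largest of these markers was Myl3, at 34372, 24054 and 33088 CPM in control and 37428, 31166 and 36294 CPM in GR-cKO hearts 1, 2 and 3. Of the 10 markers, 9 had a log2 fold change above 0 and 1 below (median 0.13), and none passed.

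Slc25a5 (chromosome X, 36795651 to 36798807, plus strand) is the adenine nucleotide carrier of growing cells. Its levels were 286, 214 and 247 CPM in control and 174, 284 and 146 CPM in GR-cKO hearts 1, 2 and 3. GR-cKO replicate 2 lay within the control range and the other GR-cKO hearts lay below it. Slc25a5 had the largest spread of the 27 members with at least 10 CPM, a coefficient of variation of 25.6% against a median of 12.9%. Its log2 fold change was -0.30 (SE 0.228, edgeR adjusted p = 0.998), and -0.64 without GR-cKO replicate 2 (edgeR adjusted p = 0.460) and -0.12 without GR-cKO replicate 3. Relative to Slc25a5, Slc25a4 was 17.3 to 33.6 times higher within a library.

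The balance of these carriers did not separate the genotypes. Slc25a4 was 95.2, 96.4 and 95.3% of the reads of both genes in control and 96.3, 94.5 and 97.1% in GR-cKO hearts 1, 2 and 3. The difference of means was 0.332 percentage points (2-sided exact permutation p = 0.800), and it turned to -0.235 without GR-cKO replicate 3. Such shares were computed for 6 pairs of related carriers, and the Benjamini-Hochberg adjusted p over them was 0.750 to 0.900. For this test, as for all with 3 libraries against 3, the smallest possible p is 0.1. Slc25a31, the adenine nucleotide carrier of testis, had too few reads for a test, 3 to 11 in a library.

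Slc25a3 (chromosome 10, 91116574 to 91124059, minus strand), the phosphate carrier, was at 1179, 1425 and 1259 CPM in control and 1189.7, 1092 and 1297 CPM in GR-cKO hearts 1, 2 and 3. Its groups overlapped, with a log2 fold change of -0.11 (SE 0.112, 95% interval -0.34 to 0.12). It ran from -0.17 without control replicate 1 to -0.03 without control replicate 2. The carriers that exchange ATP-Mg for phosphate under control of calcium were far less abundant. Slc25a23 had a mean of 30.6 CPM, Slc25a24 15.1 and Slc25a25 4.61. Their relatives Slc25a41 and Slc25a54 had 1 read and 0 reads in all libraries together, where 3 reads correspond to 0.131 to 0.168 CPM in 1 library. Reads of 0 in 1 library therefore allow a level up to these values in that library, counting error only.

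Summed over the family, the level was 8609, 8772 and 7969.8 CPM in control and 7307, 7684 and 7966 CPM in GR-cKO hearts 1, 2 and 3. The groups were separated by less than 5 CPM, between control replicate 3 and GR-cKO replicate 3. The means were 8450.0 ± 424 and 7652 ± 330.3 CPM (SD, n = 3 each), a ratio of 0.906 (2-sided exact permutation p = 0.1, the smallest this design allows). Most of the difference of -798 CPM was Slc25a4, and without that gene the difference was -103 CPM (exact permutation p = 0.400). The groups overlapped when size factors other than TMM were used for the sum (exact permutation p = 0.200 with RLE factors or library totals and 0.600 with spike-in scaling).

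**Figure D3:**
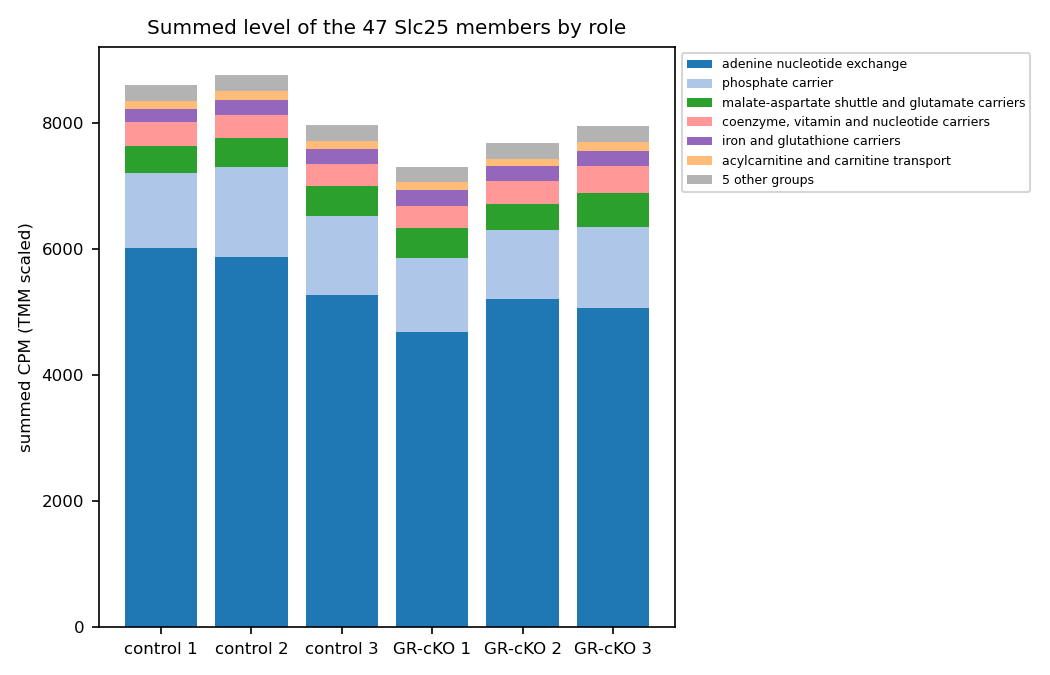
Summed CPM of the 47 members in each library, stacked by role, with bars from 0. The adenine nucleotide carriers make up 63.6 to 70.0% of each bar, and the 3 control bars stand at 7969.8 to 8772 CPM against 7307 to 7966 CPM for GR-cKO.

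The group of acylcarnitine and carnitine transport held 1 member. Slc25a20 (chromosome 9, 108662088 to 108684641, plus strand) exchanges acylcarnitine for carnitine and is the step that fatty acids pass to reach beta-oxidation. It was at 131, 152 and 133 CPM in control and 139, 112 and 154 CPM in GR-cKO hearts 1, 2 and 3, with a log2 fold change of -0.04 (SE 0.128, 95% interval -0.31 to 0.23). Control and GR-cKO hearts overlapped, and the sign turned without control replicate 2 (0.03) or GR-cKO replicate 2 (0.08). Of the 6 genes listed as working beside this carrier, 5 were tested and none passed (3 below 0, median log2 fold change -0.05). Cpt2, which rebuilds acyl-CoA inside the inner membrane, was at 209.8 ± 10.3 and 203 ± 11.5 CPM in controls and GR-cKO hearts (SD, n = 3 each). Cpt1b, the outer membrane enzyme of heart muscle, had 0 to 3 reads per library. Its 3′ end shares exons with the gene Gm44502 on the same strand. Whether reads were lost to this overlap was not tested, so the count of Cpt1b is not taken as its level.

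Members of the malate-aspartate shuttle, which carries reducing equivalents of glycolysis into mitochondria, were all well detected. Slc25a11, the oxoglutarate-malate carrier, was at 223, 268 and 258 CPM in control and 252, 229.6 and 308 CPM in GR-cKO hearts 1, 2 and 3. Slc25a12 (aralar), the aspartate-glutamate carrier of muscle and brain, was at 100.1, 119.5 and 99.4 CPM in control and 102, 98.7 and 112 CPM in GR-cKO. Slc25a13 (citrin), its counterpart best known from liver, was at 88.2, 63.6 and 93.1 CPM in control and 88.3, 73.9 and 102 CPM in GR-cKO. All 3 genes overlapped between the groups, with log2 fold changes of 0.08 (SE 0.126), -0.03 (SE 0.117) and 0.11 (SE 0.147). Their sign turned when single libraries were left out and was -0.05 for Slc25a11 without GR-cKO replicate 3, 0.06 for Slc25a12 and -0.04 for Slc25a13 without control replicate 2. The sign also turned for Slc25a12 without GR-cKO replicate 2 (0.01) and for Slc25a13 without GR-cKO replicate 3 (-0.01). For Slc25a12 it turned to 0.02 with spike-in scaling as well.

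Slc25a12 made up 53.2, 65.3 and 51.6% of the reads of both aspartate-glutamate carriers in control and 53.5, 57.2 and 52.4% in GR-cKO hearts 1, 2 and 3. Control replicate 2 had the highest share and the lowest level of Slc25a13. The means differed by -2.31 percentage points (2-sided exact permutation p = 0.900), and by 1.99 without control replicate 2. That heart also had the highest level of Ucp1, the uncoupling protein of brown fat, at 89.3 CPM against 0 to 18.8 CPM in the others. Summed adipose markers were 290.2 CPM in control replicate 2 and 117 to 176 CPM elsewhere, with Lep and Retn at 0 reads in all libraries. Most of the sum in every heart was Cidea, which was at 163 CPM in control replicate 2 and 117 to 167 CPM over all hearts. Adipoq was at 13.2 CPM in control replicate 2 and 0 to 4.43 CPM elsewhere. Plin1 was at 14.7 CPM there and 0.0558 to 3.87 CPM elsewhere. The part of these markers in the share was not tested. The shuttle's 4 enzymes in the cytosol and matrix also gave no call, with a median log2 fold change of 0.05. For 1 of them, Got1, the groups did not overlap (25.0%, against 9.97% of all tested genes). Got1 was at 353, 345 and 344 CPM in control and 342, 318 and 322 CPM in GR-cKO hearts 1, 2 and 3 (log2 fold change -0.09, SE 0.105, edgeR adjusted p = 0.998). Of the glutamate carriers Slc25a22 was at 19.0 CPM and Slc25a18 had 0 to 5 reads per library.

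Among carriers of di- and tricarboxylic acids, Slc25a10 exchanges malate or succinate for phosphate. It was at 15.6, 17.6 and 17.4 CPM in control and 20.1, 25.2 and 15.7 CPM in GR-cKO hearts 1, 2 and 3 (log2 fold change 0.27, SE 0.185, edgeR adjusted p = 0.998). The value was 0.09 without GR-cKO replicate 2 and 0.43 without GR-cKO replicate 3. GR-cKO replicates 1 and 2 lay above all controls and replicate 3 lay within them. Slc25a1, the citrate carrier that supplies cytosolic acetyl-CoA, had a mean of 10.4 CPM. Slc25a21, the oxodicarboxylate carrier, had 6 reads in control replicate 2 and 0 in the other libraries.

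Carriers of coenzymes, vitamins and nucleotides were the largest group by number, with 9 of 9 members tested. Slc25a51, the NAD carrier, was the most abundant at 185, 162 and 168 CPM in control and 170.2, 191 and 218 CPM in GR-cKO hearts 1, 2 and 3 (log2 fold change 0.17, SE 0.120, and 0.07 without GR-cKO replicate 3 or 0.26 without GR-cKO replicate 1). The groups overlapped at 170.2 to 185 CPM. Slc25a36, a pyrimidine nucleotide carrier, was at 46.2 ± 1.73 and 52.8 ± 10.1 CPM (SD, n = 3 each, log2 fold change 0.19, SE 0.142). That value became 0.09 without GR-cKO replicate 3 and 0.34 without GR-cKO replicate 2.

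In this group the lowest p-values were those of Slc25a32 and Slc25a26, and neither gene passed. Slc25a32 (chromosome 15, 39091231 to 39112716, minus strand), linked to folate and flavin transport, had 71, 110 and 93 reads in control and 33, 66 and 42 reads in GR-cKO hearts 1, 2 and 3. In CPM these were 3.10, 5.65 and 4.88 against 1.84, 3.11 and 2.26. GR-cKO replicate 2 lay just above control replicate 1, so that the groups touched. The log2 fold change of Slc25a32 was -0.91 (SE 0.355, 95% interval -1.66 to -0.17, edgeR adjusted p = 0.998), and it ran from -1.15 to -0.72 with each library left out. Slc25a26 (chromosome 6, 94500331 to 94604672, plus strand), the S-adenosylmethionine carrier, was at 14.9, 20.4 and 14.2 CPM in control and 10.9, 13.8 and 13.8 CPM in GR-cKO hearts 1, 2 and 3. All GR-cKO hearts lay below all controls, and the log2 fold change was -0.36 (SE 0.198, edgeR adjusted p = 0.998). Without control replicate 2 it was -0.17. The opposite-strand exons of Lrig1 at its 3′ end make this count uncertain. Among further members, Slc25a42, the coenzyme A carrier, was at 28.1 CPM, Slc25a17 at 24.4, Slc25a16 at 13.5 and Slc25a33 at 7.64 CPM.

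Iron and glutathione carriers were all tested. Slc25a39, a glutathione carrier, was at 126, 146 and 148 CPM in control and 153, 147 and 144 CPM in GR-cKO hearts 1, 2 and 3 (log2 fold change 0.08, SE 0.113, turning to -0.01 in male libraries alone). Its closest relative Slc25a40 was at 11.6 ± 1.78 and 9.77 ± 1.39 CPM (SD, n = 3 each, log2 fold change -0.25, SE 0.215, and -0.13 without GR-cKO replicate 3). Slc25a37 (mitoferrin-1), the iron importer that red cell precursors depend on, was at 41.8, 50.6 and 49.8 CPM in control and 61.9, 55.0 and 49.5 CPM in GR-cKO hearts 1, 2 and 3 (log2 fold change 0.23, SE 0.131, edgeR adjusted p = 0.998). GR-cKO replicates 1 and 2 lay above all controls, and without control replicate 1 the log2 fold change was 0.14. Summed erythroid markers were 6563 to 9232 CPM in control and 6800.0 to 7787 CPM in GR-cKO hearts. Of the 7 tested erythroid markers 5 had a log2 fold change below 0, no marker was at 0 in all libraries, and their part in the level of Slc25a37 was not tested. Slc25a28 (mitoferrin-2), the form of other tissues, had the smallest spread of the members with at least 10 CPM, at 25.9 to 28.9 CPM and a coefficient of variation of 4.37%.

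Of the other amino acid and choline carriers, 6 of 8 were tested. Slc25a45, on the plus strand of chromosome 19 (5877808 to 5885878), was at 9.53, 7.60 and 7.92 CPM in control and 5.81, 6.13 and 6.88 CPM in GR-cKO hearts 1, 2 and 3. All GR-cKO hearts lay below all controls (log2 fold change -0.41, SE 0.236, 95% interval -0.91 to 0.08, edgeR adjusted p = 0.998). Slc25a47 (chromosome 12, 108836046 to 108856815, plus strand), known as a liver carrier, was the 1 tested member with all GR-cKO hearts above all controls. Its reads were 77, 55 and 39 in control and 70, 74 and 92 in GR-cKO hearts 1, 2 and 3 (3.37, 2.83 and 2.05 against 3.91, 3.49 and 4.95 CPM). The log2 fold change of Slc25a47 was 0.58 (SE 0.339, 95% interval -0.13 to 1.29, edgeR adjusted p = 0.998). The 8 liver markers summed to 2.31 to 2.89 CPM in control and 2.40 to 3.07 CPM in GR-cKO hearts, most of it Ttr and Apoa2, with 2 markers at 0 in all libraries, and their part in this level was not tested. Slc25a47 starts 162 bases from Slc25a29 on the opposite strand, and that neighbour, a carrier of basic amino acids, was at 2.35 ± 0.621 and 3.07 ± 1.29 CPM in controls and GR-cKO hearts (SD, n = 3 each).

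The remaining amino acid carriers had means of 27.1 CPM for Slc25a44 (branched-chain amino acids), 15.5 CPM for Slc25a15 (ornithine) and 7.19 CPM for Slc25a38 (glycine for heme synthesis). Slc25a2, a second ornithine carrier, had 0 to 13 reads, and Slc25a48, linked to choline, had 0 to 3 reads per library. Neither was tested.

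Relatives of the uncoupling proteins were scarce. Slc25a14 was at 4.83 CPM, Slc25a27 at 2.19 CPM and Slc25a30 had 0 to 2 reads per library. The better known uncoupling proteins, which do not carry the Slc25a symbol, gave no call either. Ucp2 was at 31.2 ± 2.28 and 32.5 ± 2.99 CPM and Ucp3 at 26.9 ± 6.49 and 23.4 ± 7.05 CPM in controls and GR-cKO hearts (SD, n = 3 each). The outer membrane relatives Mtch1 and Mtch2 had log2 fold changes of 0.16 and 0.02.

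Members with an outer membrane place or no settled substrate completed the family. Slc25a46, which acts on the shape of mitochondria, was at 53.1, 58.6 and 61.5 CPM in control and 45.0, 53.4 and 63.1 CPM in GR-cKO hearts 1, 2 and 3 (log2 fold change -0.10, SE 0.135). Its sign turned to 0.02 without GR-cKO replicate 1. Slc25a34 was at 41.6, 39.8 and 33.4 CPM in control and 31.0, 25.7 and 43.6 CPM in GR-cKO hearts 1, 2 and 3 (log2 fold change -0.19, SE 0.172). Without GR-cKO replicate 3 the value was -0.43, and without GR-cKO replicate 2 it was -0.04. GR-cKO replicates 1 and 2 lay below all controls and replicate 3 above them. Slc25a53 was at 4.27 CPM, Slc25a35 at 1.15 CPM, and Slc25a43 had 0 to 2 reads per library.

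**Figure D4:**
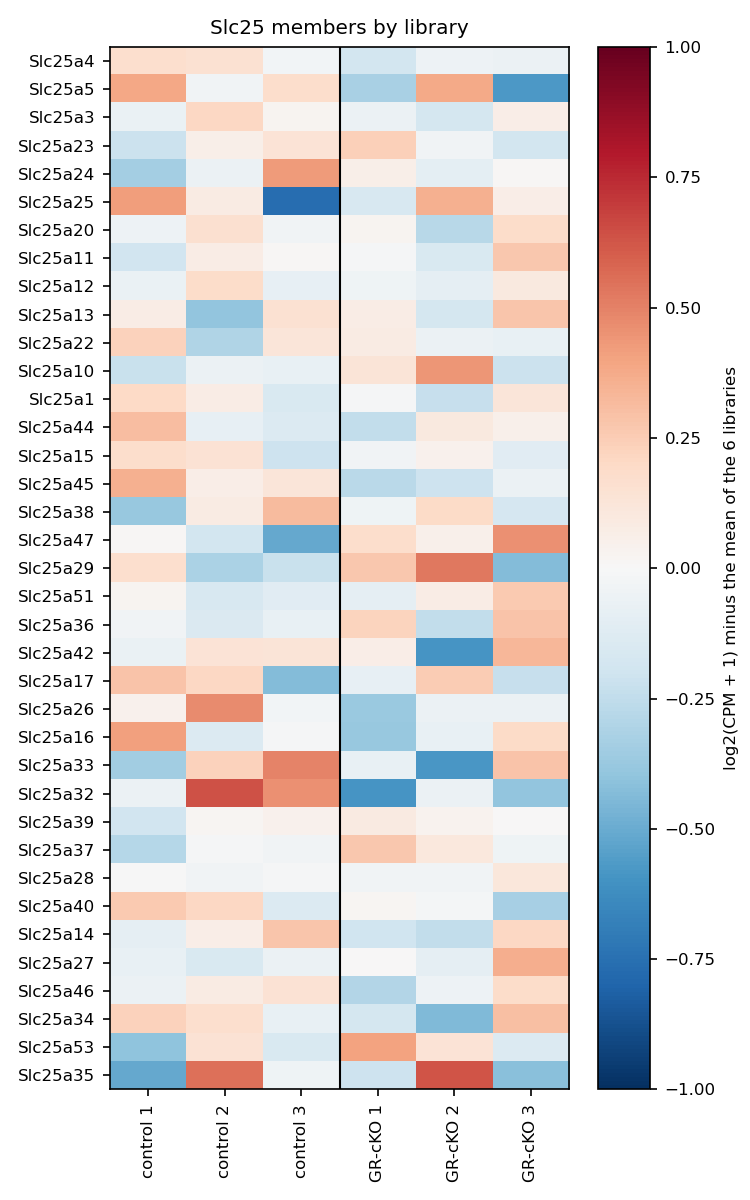
The log2(CPM + 1) of 37 of the 38 tested members in each library minus its mean over the 6 libraries, with red above and blue below the mean, ordered by role as in the plot of fold changes. Control replicate 1 and GR-cKO replicate 3 each hold the highest value of 11 of the 38 tested members.

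The mean centred log2 CPM of the tested members was -0.007, 0.068 and -0.013 in control and -0.055, -0.002 and 0.010 in GR-cKO hearts 1, 2 and 3. Control replicate 1 and GR-cKO replicate 3 each had the highest level for 11 of the 38 members (28.9%, against 14.8 and 23% of all tested genes). Control replicate 1, GR-cKO replicate 1 and GR-cKO replicate 2 each had the lowest level for 9 (23.7%, against 14.9, 15.3 and 16.4% of all tested genes). Whether these shares differ from those of all genes was not tested. The groups overlapped in this mean.

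Close relatives often differed widely in level. Over coding sequence, 8 pairs of members were each other's closest relative with at least 64% of aligned bases identical. Slc25a12 and Slc25a13 (70.5% identical, 105 and 84.8 CPM) and Slc25a28 and Slc25a37 (69.1%, 26.6 and 51.4 CPM) were both well expressed. In 4 other pairs 1 gene was at 0.324 CPM or less. These were Slc25a2 (0.324 CPM) with Slc25a15 (15.5), Slc25a30 (0.0451) with Slc25a14 (4.83), Slc25a18 (0.130) with Slc25a22 (19.0), and Slc25a54 (0) with Slc25a24 (15.1). Of 4 pairs of members that are neighbours on a chromosome, Slc25a29 and Slc25a47 had similar means (2.71 and 3.43 CPM). In each of the other pairs 1 gene was nearly without reads, as Slc25a43, which lies 18448 bases before Slc25a5 on chromosome X.

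Genes that insert carriers into the inner membrane gave no call. The list of 17 genes holds the TOM complex, the small TIM and TIM22 machinery and Timm21, which belongs to the presequence translocase, and 16 of them were tested. At an unadjusted p under 0.05 edgeR gave 1 higher and 1 lower (12.5% against 4.20% of all tested genes), with a median log2 fold change of 0.02. Timm10b, a small chaperone of carrier import, was at 62.2, 53.7 and 58.0 CPM in control and 75.4, 65.5 and 72.2 CPM in GR-cKO hearts 1, 2 and 3 (log2 fold change 0.29, SE 0.118, edgeR adjusted p = 0.998). Timm21 was at 11.3, 13.3 and 15.3 CPM against 10.8, 9.20 and 8.87 CPM (log2 fold change -0.46, SE 0.206, edgeR adjusted p = 0.998). The groups did not overlap for either gene, as for 9.97% of all tested genes. Tomm6 had 0 reads in all libraries, and its 3′ end shares exons with Gm21981 on the same strand.

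Other mitochondrial channels and transporters, 22 genes, were all tested and none passed. Their median log2 fold change was -0.02, with 14 below 0, and edgeR gave 0 at an unadjusted p under 0.05. The groups did not overlap for Vdac3 and Mpc2, or 9.09% of these genes, near the 9.97% of all tested genes. Vdac1, the main outer membrane channel, was at 546 ± 51.2 and 523 ± 54.9 CPM, and Mcu, the pore of the calcium uniporter, at 55.2 ± 3.99 and 61.5 ± 2.00 CPM in controls and GR-cKO hearts (SD, n = 3 each). Mpc2, of the pyruvate carrier, was at 324, 410.5 and 345 CPM in control and 322, 315 and 309 CPM in GR-cKO hearts 1, 2 and 3, with no overlap (log2 fold change -0.19, SE 0.115, edgeR adjusted p = 0.998). Its partner Mpc1 was at 16.3 ± 2.35 and 19.2 ± 1.87 CPM, with a log2 fold change of 0.24 (SE 0.175).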

How the data were processed

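The submitters' processing notes name bcl2fastq, cutadapt 1.16, STAR 2.5.4a, featureCounts 1.6.2 and the build GRCm38. The deposited files hold raw counts per Ensembl gene, 1 library each. Neither the annotation release nor the strand setting is stated there. Spike-in rows (92 ERCC, 7 SIRV) entered neither library sizes nor tests. Symbols, coordinates and exons came from GENCODE M21, on the same build. With edgeR 4.0.16 in R 4.3.3, filterByExpr kept 14860 genes, TMM scaled the libraries, and the quasi-likelihood F test with robust dispersion compared genotypes, with Benjamini-Hochberg adjustment over all genes and a threshold of 0.05. The SE is the log2 fold change divided by the root of F. Sums and shares were compared with 2-sided exact permutation tests. Simulated counts with 200 changed genes were used to test the script.

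Members, lists and tests were chosen with earlier results of these data known. Fold changes were given for the 12 members of highest mean CPM and the 12 of smallest p, 19 in all; other fold changes were named after their values were seen. Alternatives were DESeq2 1.42.0, limma 3.58.1 voom, other scalings, no filter, a replicate block, sex as a term and each library left out. Reads carry no molecular identifiers, so counts are not independent molecules. The labels call libraries of a group biological replicates. The values of 1 tested member enter the counts and sums but are not reported here.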

Additional observations from a re-analysis of the deposited data

How the results depend on the processing

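No Slc25 member passed in any alternative, and 13 of the 19 members with reported fold changes kept their sign in all of them. Over all genes 1 passed, against 4 with DESeq2, 2 with library totals, 10 without the filter on low counts and 1 to 2 with each library left out. In male libraries alone, an alternative chosen after seeing the data, edgeR called 0 genes, with 537 at an unadjusted p under 0.05. Signs turned for Slc25a12 with spike-in scaling (0.02) and Slc25a39 in male libraries (-0.01). Leaving out single libraries gave ranges of the log2 fold change of -0.05 to 0.16 for Slc25a11, -0.15 to 0.08 for Slc25a20, -0.08 to 0.06 for Slc25a12, -0.04 to 0.22 for Slc25a13 and -0.23 to 0.02 for Slc25a46. The Slc25a4 share differed by -0.235 to 1.05 and the Slc25a12 share by -4.84 to 1.99 percentage points, and the summed level by -1038 to -625 CPM. The cause of these turns was not tested.

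Replicate numbers recur in both groups, and libraries of the same number also share their sex. In their deviations from the group means, libraries of the same number correlated at 0.0620, 0.0562 and 0.0144. Those of different numbers correlated at -0.0893 to 0.0294. The libraries were not taken as pairs, and these low values do not settle whether the hearts were paired. With a replicate block edgeR called 1 gene and 0 members. For the summed level the block gave the same difference of -798 CPM (exact permutation p = 0.25, the smallest it allows). The SE was 0.289 to 0.678 for the 8 tested members under 5 CPM, against a median of 0.188 over all tested members, and depth and spread between hearts were not separated.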
